A study of Mus musculus with 66 samples.

Results

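The RNA of mouse embryonic stem cells was followed here over a single interval of early interphase, from 90 to 120 minutes after release from mitotic arrest, in cells without auxin. All genes with a level of at least 1 TPM in any of the 9 stages without auxin were taken, which gave 8871 of the 13957 genes in the deposited table. TPM, a relative unit of RNA-seq, allows for the length of the gene and the total of the library. The limit of 1 TPM fell between Prss36, whose highest level was 1 TPM, and Srd5a3, whose highest level was 0.9982 TPM. Dppa3 was also just inside it, at 1.0004 TPM, and Nucb2 just outside, with a highest level of 0.9979 TPM.

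Cells of the 129/Ola genotype, a derivative of the E14Tg2a line, carried Esrrb and Nr5a2 in forms that auxin degrades. Esrrb and Nr5a2 are orphan nuclear receptors of the pluripotency network. Samples were asynchronous cells, cells arrested in mitosis, and cells at 7 times after release, from 20 to 120 minutes, each without and with auxin, which makes 18 groups of 3 libraries. RNA was total RNA depleted of ribosomal RNA, in stranded paired-end libraries. The comparison rests on 6 libraries, 3 at 90 and 3 at 120 minutes, both without auxin and with the same degradable receptors. The titles give the arm of each sample, whereas the treatment field carries the control code for every RNA library. Whether the line is 1 clone and whether its 3 libraries per group are separate cultures is not given in the sources used here. The agent of the arrest is not named there either.

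Every value is the authors' mean of 3 libraries, so no value carries a replicate error and no gene has a test. A difference is given as the step, log2(TPM + 1) at 120 minutes minus that at 90 minutes, and a gene is called higher or lower past a 1.5-fold difference on this scale. The scale understates the change of low genes. The same step in the arm with auxin came from libraries that the comparison does not use, and it is given beside each result. That arm was treated to degrade both receptors, whose protein levels were not measured in the data used here. It is thus a repeat of the interval under another condition, not a replicate.

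Transcription stops almost entirely in mitosis and returns in a wave as the daughter cells enter interphase. In that wave, short-lived messages of immediate early, growth and cell cycle genes are known to come first. Long genes are completed later, since RNA polymerase II needs time to cross them. Embryonic stem cells have a short G1 phase and restart their pluripotency network at the same time as their housekeeping genes.

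Most defining markers of embryonic stem cells were present. Of 10 stem cell markers 9 were in the table, 8 of them at 1 TPM or more at both times, with a summed level of 145 TPM at 90 minutes and 127 TPM at 120 minutes. Sox2 was not in the table, and Fgf4 was at 0.904 and 0.939 TPM. Zfp42 alone made up 60.7 and 61.3 TPM of the sums. None of 4 primitive endoderm, 3 trophectoderm and 2 fibroblast markers in the table reached 1 TPM at either time. Of 4 germ layer markers 1 did, Pax6, a neural transcription factor, at 2.97 and 1.92 TPM. Wider lists of such types, whose members embryonic stem cells can also express, hold genes above 1 TPM. Fn1, of the matrix, was at 15.1 and 12.3 TPM, Vim, a filament protein, at 2.13 and 1.67 TPM, Lamc1, a laminin chain, at 7.4 and 5.14 TPM, and Tfap2c, a trophectoderm factor, at 2.68 and 3.06 TPM. Their part in the results was not tested. Summed over the listed genes, TPM came to 45046 at 90 minutes and 40735 at 120 minutes, and 45493 and 41287 with auxin.

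Most genes were slightly lower at 120 than at 90 minutes, and few differed by much. The median step was -0.12 without auxin and -0.12 with auxin, where 69.9% of genes were lower and 30.1% higher by any amount. The middle 50% of genes lay between -0.27 and 0.03, and 90% lay between -0.47 and 0.29. Of the 8871 genes, 6254 (70.5%) were lower at 120 minutes by any amount and 2613 (29.5%) higher. Past 1.5-fold, 44 genes were higher (0.496%) and 154 lower (1.74%). Past 2-fold, 6 genes were higher (0.0676%) and 9 lower (0.101%). This balance depends on the scaling. With both columns brought to the same total over the listed genes, the median step was -0.02, 53% of genes were lower, and 94 genes were higher and 54 lower past 1.5-fold. Steps are therefore also given relative to the median over all genes where groups of genes are described.

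The step had the same form in the arm with auxin. There, 51 genes were past 1.5-fold higher (0.575%) and 166 lower (1.87%), and 5 past 2-fold higher (0.0564%) and 13 lower (0.147%). Of the 44 genes higher without auxin, 41 had a positive step with auxin and 31 were past 1.5-fold, which is 70.5% of the 44 and 60.8% of the 51. Of the 154 lower genes, 148 had a negative step with auxin and 98 were past 1.5-fold, which is 63.6% of the 154 and 59.0% of the 166. The median step of the 44 genes was 0.66 without and 0.65 with auxin, and that of the 154 genes was -0.66 and -0.61. Across the 8871 genes the steps of both arms had r = 0.857 and rho = 0.867, as a description only, since genes do not replicate each other. The median absolute difference between the arms was 0.0569.

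**Figure D1:**
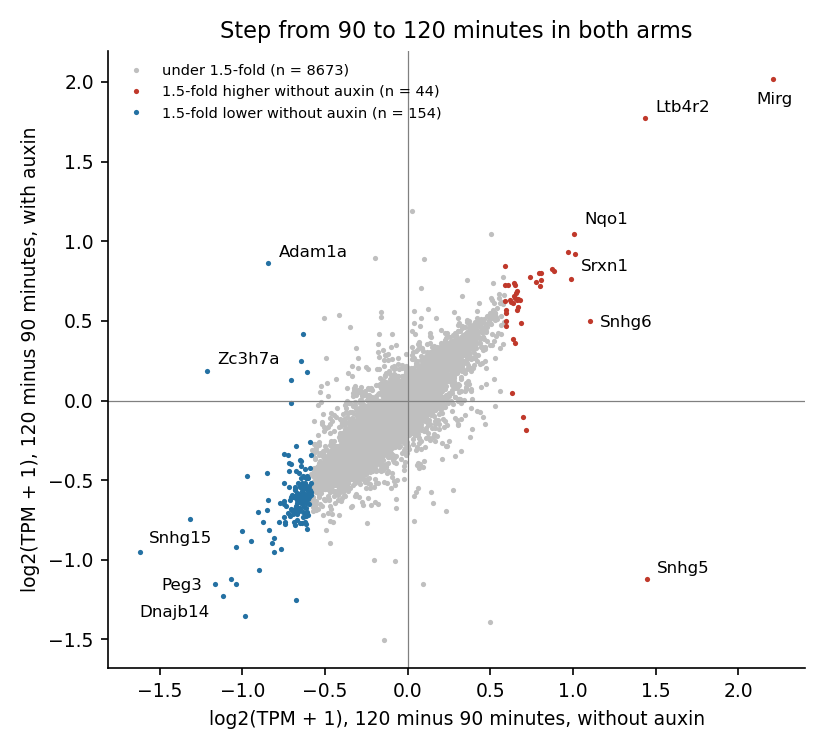
Step from 90 to 120 minutes without auxin (x axis) against the same step with auxin (y axis), as log2(TPM + 1) at 120 minus 90 minutes, 1 point per gene. Red points are the 44 genes past 1.5-fold higher and blue points the 154 genes past 1.5-fold lower without auxin; most lie in the upper right and lower left, with Snhg5, Zc3h7a and Adam1a on opposite sides in the 2 arms.

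The choice of the genes by their 90 and 120 minute levels fixes part of their time course, since 90 minutes cannot be the highest time of a higher gene, nor 120 minutes of a lower one. The median level of the 44 genes past 1.5-fold higher was 0.447 TPM in mitosis, 1.16 TPM at 60 minutes, 1.54 TPM at 90 minutes and 3.59 TPM at 120 minutes, against 0.681 TPM in asynchronous cells. Of the 7 release times, 120 minutes held the highest level for 41 of the 44 and 60 minutes for the other 3. The median level of the 154 genes past 1.5-fold lower was 1.05 TPM in mitosis, 7.73 TPM at 60 minutes, 4.89 TPM at 90 minutes and 2.68 TPM at 120 minutes, against 1.64 TPM in asynchronous cells. The highest level fell at 60 minutes for 130 of the 154, at 50 minutes for 13, at 90 minutes for 10 and at 40 minutes for 1. Over all 8871 genes it fell at 60 minutes for 46.0%, at 90 minutes for 23.7% and at 120 minutes for 22.4%.

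**Figure D2:**
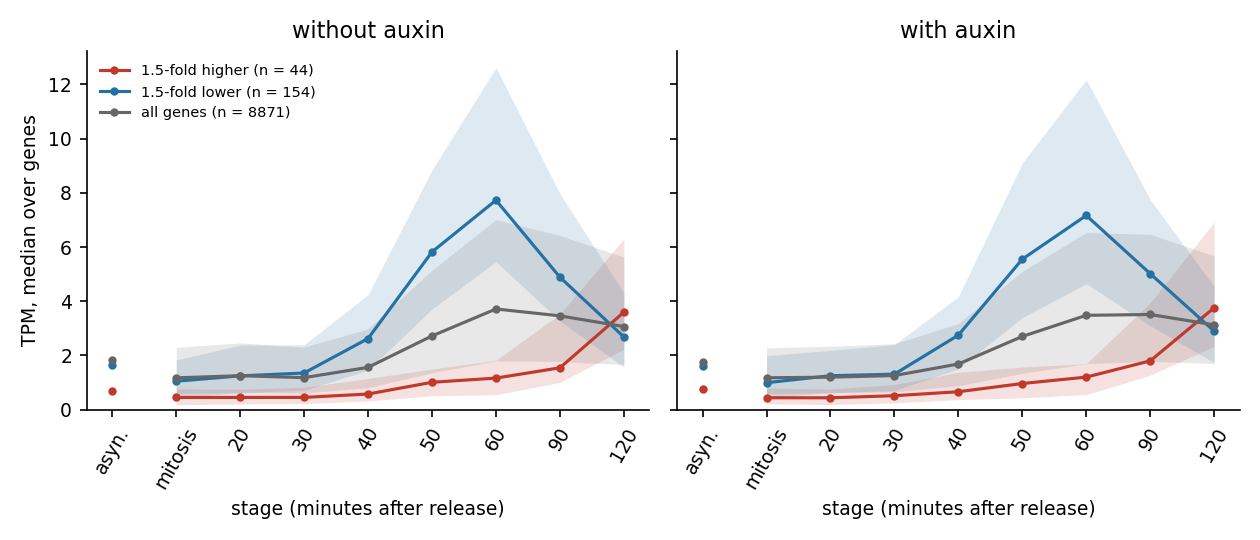
Median TPM (y axis) at each stage (x axis, minutes after release) of the 44 genes past 1.5-fold higher, the 154 genes past 1.5-fold lower and all 8871 genes, without auxin (left) and with auxin (right), with the quartiles over genes as shading. The lower genes peak at 60 minutes in both panels, and the higher genes have their highest median at 120 minutes.

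As deposited, levels were above those of asynchronous cells at both times. The median of log2(TPM + 1) above asynchronous cells was 0.63 at 90 minutes and 0.50 at 120 minutes, and 0.69 and 0.57 with auxin. At 90 minutes 90.4% of genes were above their asynchronous level, and at 120 minutes 89.9%. Both values share the asynchronous libraries. The listed genes sum to 24769 TPM in asynchronous cells, so the totals differ too, and these shares were not computed with equal totals.

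The largest step was that of Mirg, a noncoding RNA gene of the imprinted Dlk1-Meg3 domain on chromosome 12. This domain is known to express, from the maternal copy, a row of noncoding RNAs and microRNAs, thought to arise from long transcripts that run from Meg3 through Rian to Mirg. MicroRNAs are cut from such host transcripts as hairpins, and each recognises its targets through a seed, bases 2 to 8. Mirg (chr12:109734981-109749458, GRCm38.p6) holds 10 microRNA hairpins with 19 mature forms and 18 different seeds. The 3 forms below show the pair that shares a seed, miR-453 and miR-496a-5p, and miR-410-3p from the 3′ part of the cluster. They are RefSeq sequences from the plus strand, 5′ to 3′, with the seed in capitals.
mmu-miR-453: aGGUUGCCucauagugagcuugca
mmu-miR-496a-5p: aGGUUGCCcaugguguguuca
mmu-miR-410-3p: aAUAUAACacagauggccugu

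Mirg went from 1.32 TPM at 90 minutes to 9.72 TPM at 120 minutes without auxin, a step of 2.21, and from 1.58 to 9.48 TPM with auxin, a step of 2.02. It had been lower at 60 minutes (0.606 TPM) than in mitosis (2.38 TPM), and was at 6.92 TPM in asynchronous cells. Rian, whose annotated start lies 62.9 kb after that of Meg3, was at 3.32 TPM at 60 minutes, 10.6 TPM at 90 minutes and 12.6 TPM at 120 minutes. Its larger difference was thus in the interval before. Meg3 itself was at 20.1, 21.1 and 15.6 TPM at the same times, so it was lower at 120 minutes, with a step of -0.41 without and -0.50 with auxin. The start of Mirg lies 194 kb after that of Meg3. The larger of the 2 last intervals was thus from 60 to 90 minutes for Rian and from 90 to 120 minutes for Mirg, the gene farther from Meg3. Whether the 3 genes are read as 1 transcript was not tested. The row of the table for Mir496a, a hairpin inside Mirg, was at 0.0088 TPM at 90 minutes and 0.231 TPM at 120 minutes. With auxin it went the other way, from 0.0786 to 0 TPM, and without auxin it had been at 3.13 TPM in mitosis. The reads are of total RNA, so these values do not measure mature microRNAs.

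**Figure D3:**
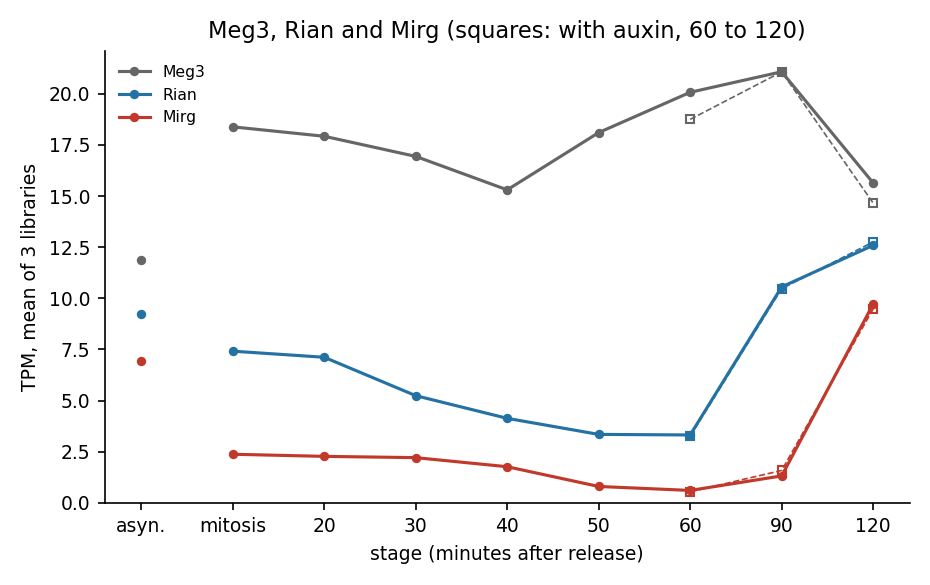
TPM (y axis, the authors' mean of 3 libraries) of Meg3, Rian and Mirg in asynchronous cells, in mitosis and at 7 times after release (x axis, minutes), without auxin as filled circles and with auxin at 60, 90 and 120 minutes as open squares. Rian steps up between 60 and 90 minutes and Mirg between 90 and 120 minutes, while Meg3 is lower at 120 than at 90 minutes.

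Other microRNA genes were also among the 44. In all, 3 of the 44 higher genes (6.82%) hold 14 hairpins, 4 of the 154 lower genes (2.6%) hold 5, and 383 of the 8871 genes (4.32%) hold at least 1. Gm13648 (chr4:156052715-156059802) spans Mir200a, Mir200b and Mir429, a family known for keeping cells epithelial. It was at 1.15 TPM at 60 minutes, 2.72 TPM at 90 minutes and 6.49 TPM at 120 minutes, a step of 1.01 (0.92 with auxin). Mir34a (chr4:150068454-150068555), a microRNA gene that p53 is known to activate, went from 17.8 to 28.8 TPM, a step of 0.66 (0.69 with auxin). Both genes were higher at 120 minutes in both arms. The sequences below, from RefSeq, show that miR-200b and miR-429 share a seed, that miR-200a differs from it, and that miR-34a has another. The 3 forms of the miR-200 family are on the minus strand and miR-34a is on the plus strand, with the seed in capitals.
mmu-miR-200b-3p: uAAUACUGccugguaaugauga
mmu-miR-429-3p: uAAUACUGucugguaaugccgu
mmu-miR-200a-3p: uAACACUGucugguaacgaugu
mmu-miR-34a-5p: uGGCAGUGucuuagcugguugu

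Mir298, a microRNA gene of the imprinted Gnas region, was just short of 1.5-fold, at 8.77 and 13.4 TPM, a step of 0.56 (0.53 with auxin). Mir20a, of the growth-promoting miR-17-92 cluster, went the other way, from 5.13 to 3.39 TPM, a step of -0.48 (-0.71 with auxin). It had been at 20.0 TPM at 60 minutes. Mirlet7d was at 13.8 and 13.5 TPM and Mir101a at 6.84 and 6.59 TPM. These rows are as short as the hairpins, so few reads can stand behind each, and the number is unknown.

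Genes of the oxidative stress response had the highest median of the 47 gene lists. NRF2, the product of Nfe2l2, is known to be held and marked for destruction by Keap1. Oxidants release it, and it then binds antioxidant response elements of genes for glutathione synthesis, thioredoxin, quinone reduction and iron storage. Of the 17 genes listed 15 were in the table, and 13 of them were higher and 2 lower at 120 minutes, in either arm, against 29.5% of all genes higher. The median step was 0.24, which is 0.36 above the median of all genes, and 0.21 with auxin, which is 0.33 above. Past 1.5-fold higher were 2 of the 15, Nqo1 and Srxn1, against 0.496% of all genes.

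Nqo1, a quinone reductase, was at 1.31 TPM at 60 minutes, 1.47 TPM at 90 minutes and 3.97 TPM at 120 minutes. Its step was 1.01 without auxin and 1.05 with auxin. Srxn1, which repairs oxidised peroxiredoxins, was at 1.09, 1.86 and 4.61 TPM, with a step of 0.97 (0.93 with auxin). From mitosis to 60 minutes Nqo1 had stayed between 0.685 and 1.41 TPM, and Srxn1 between 0.764 and 1.21 TPM. Hmox1, the heme-degrading enzyme, was at 8.72, 11.7 and 16.9 TPM, with a step of 0.49 (0.50 with auxin). Its level with auxin was 16.4 TPM at 90 minutes and 23.6 TPM at 120 minutes.

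The remaining members differed less. Fth1, the ferritin heavy chain, had a step of 0.37, and Gsr, which reduces glutathione, 0.29. Sqstm1, an autophagy adaptor that binds Keap1, had 0.25. Gclc and Gclm, both subunits of the enzyme that starts glutathione synthesis, had 0.24 and 0.19, and Txnrd1, thioredoxin reductase, 0.24. Keap1 itself had 0.21. Txn1 had 0.10, Prdx1 0.07 and Ftl1 0.02, and all of these were positive with auxin too. Nfe2l2, which codes for NRF2, went from 13.0 to 10.5 TPM, a step of -0.27, or -0.15 relative to the median of all genes. G6pdx, of the pentose phosphate pathway, had a step of -0.15, close to that median. The gene for the factor was thus lower, as most genes were, while most of its known targets were higher.

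**Figure D4:**
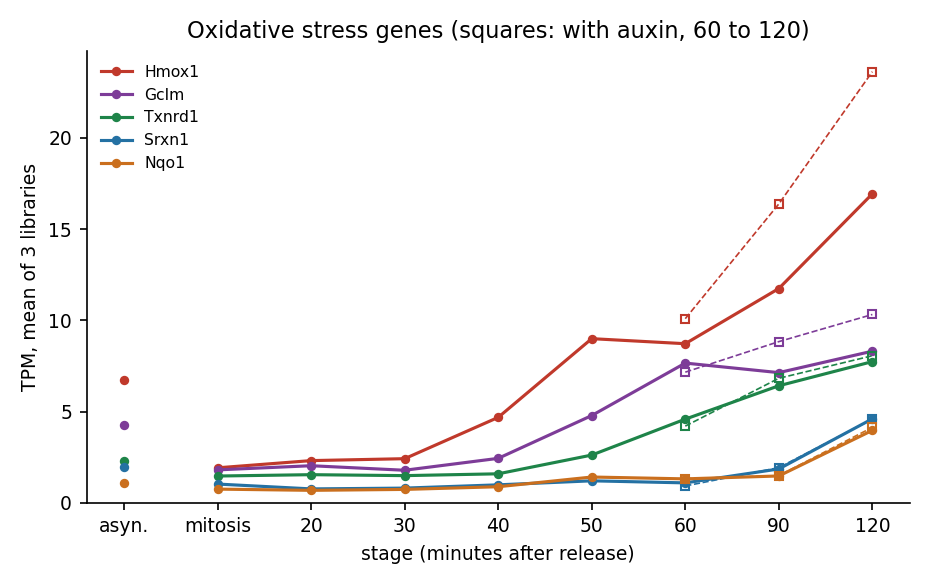
TPM (y axis, the authors' mean of 3 libraries) of Hmox1, Gclm, Txnrd1, Srxn1 and Nqo1 in asynchronous cells, in mitosis and at 7 times after release (x axis, minutes), without auxin as filled circles and with auxin at 60, 90 and 120 minutes as open squares. Srxn1 and Nqo1 step up after 90 minutes in both arms, and Hmox1 has its highest level at 120 minutes.

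Promoters of the list were searched for the core of the antioxidant response element, TGACNNNGC on either strand, in the window from 250 bases before to 50 bases after each RefSeq start. This motif was added after the values were seen. Of the 12 listed genes with a promoter sequence 6 had it (50.0%), against 17.0% of the 7199 genes with one and 12.4% of all 32851 promoters in the table. A gene counts if any of its starts has a match, whereas the 32851 are single promoters, so these last 2 shares are of unlike units. Those 6 include Nfe2l2 and G6pdx, the 2 members with a negative step, and Nqo1, with the highest step, had no match in this window. A TATA box was in 6 of the 12 as well (50.0%), against 7.56% of the 7199. A match is a description and not a bound site. The upstream 250 bases of Gclm (chr3:122245307-122245556, plus strand) and of 1 start of Txnrd1 (chr10:82858956-82859205, plus strand) show it, in GRCm38.p6 sequence from RefSeq, 5′ to 3′, with the match in capitals. In both it is on the reverse strand.
Gclm: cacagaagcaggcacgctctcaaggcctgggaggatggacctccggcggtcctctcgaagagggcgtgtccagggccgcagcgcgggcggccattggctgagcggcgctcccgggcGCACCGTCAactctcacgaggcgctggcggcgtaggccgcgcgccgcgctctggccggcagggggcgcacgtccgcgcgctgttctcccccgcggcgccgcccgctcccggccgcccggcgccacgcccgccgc
Txnrd1: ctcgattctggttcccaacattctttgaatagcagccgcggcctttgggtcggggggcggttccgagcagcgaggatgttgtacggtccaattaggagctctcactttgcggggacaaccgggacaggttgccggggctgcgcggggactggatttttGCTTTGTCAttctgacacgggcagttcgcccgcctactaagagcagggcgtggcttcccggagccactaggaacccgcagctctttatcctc

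Promoters of the 44 higher and 154 lower genes were also compared for 14 motifs, searched on both strands. Sequences were found for 24 and 131 of them. The CCAAT box (CCAAT) was in 37.5% of the higher, 53.4% of the lower and 44.0% of all 7199 genes with a promoter. Counted over single promoters it was in 37.4% of the 32851. The GC box (GGGGCGGGG) was in 16.7%, 32.1% and 26.9%. The TATA box (TATAAA) was in 12.5%, 6.11% and 7.56%. The AP-1 site (TGACTCA) was in 8.33%, 3.82% and 3.67%, and the ETS site (CCGGAAGT) in 0%, 6.87% and 11.1%. With 24 genes a single match is more than 4 percentage points, so the shares of the higher genes are coarse. The element that Esrrb and Nr5a2 share (TCAAGGTCA) was in none of the 24 and 131 genes and in 0.375% of all 7199.

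Further genes stood among the highest steps. Snhg5 and Snhg6 host small nucleolar RNAs, which guide the modification of ribosomal RNA. Snhg6 was at 13.6 TPM at 60 minutes, 4.95 TPM at 90 minutes and 11.8 TPM at 120 minutes, a step of 1.10 (0.50 with auxin). Snhg5 went from 1.06 to 4.60 TPM without auxin and from 3.20 to 0.931 TPM with auxin, so its steps, 1.45 and -1.12, had opposite signs. Ltb4r2, a leukotriene B4 receptor, was listed at 0 at 90 minutes in both arms and at 1.71 TPM at 120 minutes, or 2.42 TPM with auxin. Its neighbour on chromosome 14, Ltb4r1, went from 1.32 to 3.29 TPM, a step of 0.89 (0.81 with auxin).

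Pvt1, a long noncoding RNA gene beside Myc, went from 5.2 to 10.4 TPM and had been at 1.86 TPM at 60 minutes. Its step was 0.87 (0.83 with auxin). Mgmt, which repairs alkylated guanine, went from 2.77 to 5.59 TPM, a step of 0.81 (0.80 with auxin). The spans of these 2 genes, 222230 and 233731 bp, are more than 2 times the median of the longest span group given below. Klhl26, a Kelch protein, had the highest level of the 44 genes, 35.3 TPM, up from 19.8 TPM, a step of 0.81 (0.76 with auxin). Snai3, of the Snail family of repressors, went from 1.02 to 3.01 TPM, and Fosl1, an AP-1 subunit, from 2.56 to 5.2 TPM, with steps of 0.99 and 0.80 (0.76 and 0.72 with auxin). Neurod1, a neural transcription factor, was at 3.75 and 6.24 TPM, Ass1, of arginine synthesis, at 5.66 and 9.34 TPM, and Triml1 at 7.22 and 12 TPM. All of these genes except Snhg5 had positive steps in both arms.

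Genes that first reached 1 TPM at 120 minutes without auxin numbered 130, and 112 of them were also at 1 TPM or more at 120 minutes with auxin. By level at 120 minutes they were led by Tmem179 at 1.97 TPM, Gpr75, a G protein-coupled receptor, at 1.92 TPM, Cyyr1 at 1.89 TPM and Cgref1 at 1.77 TPM. Ltb4r2 at 1.71 TPM and Retsat, which saturates retinol, at 1.67 TPM followed. Gpr75 had been at 0.00718 TPM in mitosis and 0.142 TPM at 60 minutes.

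The lower genes were led by Snhg15, another small nucleolar RNA host, which went from 19 to 5.52 TPM, a step of -1.62 (-0.95 with auxin, where it started from 8.44 TPM). Peg3, an imprinted zinc finger gene expressed from the paternal copy, was at 13.0 TPM at 60 minutes, 6.23 TPM at 90 minutes and 2.23 TPM at 120 minutes, a step of -1.16 (-1.15 with auxin). Dnajb14, a membrane co-chaperone, was at 13.4, 3.51 and 1.08 TPM, with -1.12 (-1.23). Pkn3, a protein kinase, was at 16.5, 7.01 and 2.82 TPM, with -1.07 (-1.12). Lrpap1, a chaperone of lipoprotein receptors, was at 14.2, 7.36 and 3.07 TPM, with -1.04 (-1.15). Irs2, the insulin receptor substrate, was at 12.8, 4.27 and 1.82 TPM, with -0.90 (-1.07). These 5 genes were above 10 TPM at 60 minutes and at about 1 to 3 TPM by 120 minutes, and their steps were alike in both arms.

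Some large negative steps were not alike in both arms. Zc3h7a, an RNA-binding protein, went from 11.3 to 4.32 TPM without auxin and from 6.30 to 7.31 TPM with auxin, steps of -1.21 and 0.19. Adam1a, a membrane protease gene, had steps of -0.84 and 0.86. Praf2, a vesicle traffic protein, had -1.31 and -0.74, and Higd2a, an assembly factor of the respiratory chain, -0.97 and -0.48. Past 1.5-fold between the arms, 22 genes had a higher (0.248%) and 22 a lower (0.248%) step with auxin. Among the former were also Fam177a (0.03 without and 1.19 with auxin), Swsap1, Ccdc107 and 9330020H09Rik. Among the latter were Snhg5, the phosphatase gene Dusp28 (0.50 and -1.39), the histone gene Hist1h2br (-0.14 and -1.50), Uqcc3, 1700047I17Rik2 and Fam173a. Without a spread between libraries these differences have no test. Hist1h2br has close copies elsewhere, which makes its value uncertain.

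Cell cycle genes of the next phase were on the lower side. The list of G1/S and replication genes, which license and copy DNA, had a median step 0.17 below that of all genes, and 34 of 44 members were below that median and 10 above. With auxin the median was 0.15 below. In all, 4 of the 44 were past 1.5-fold lower and 0 higher, against 1.74% and 0.496% of all genes. Gins2, of the replicative helicase, went from 10.8 to 6.44 TPM, and Mcm4, of the same helicase, from 10.7 to 6.49 TPM. Slbp, which binds histone messages, went from 11.3 to 6.98 TPM, and Ccnd1, a G1 cyclin, from 4.86 to 2.84 TPM. Ccne1, a G1/S cyclin, was at 9.93 and 6.37 TPM. The exception with the highest step was Pola1, the catalytic subunit of the priming polymerase, which went from 4.52 to 6.32 TPM, a step of 0.41 (0.46 with auxin). Mitotic genes had a median 0.08 below that of all genes, with 26 of 39 members below it. Their lowest members were Fzr1, an activator of the anaphase-promoting complex, at -0.58, and Ect2, of cytokinesis, at -0.57, and the highest was Aurkb at 0.07.

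Cholesterol synthesis genes, which SREBP factors are known to switch on when sterols are low, had a median 0.19 below that of all genes (0.15 below with auxin). All 25 of 25 had a negative step without auxin and 24 of 25 with auxin. Relative to the median of all genes, 23 of 25 were below without auxin and 20 of 25 with auxin. Past 1.5-fold lower were 2 of the 25, against 1.74% of all genes. They were Insig1, which holds the sterol sensor back, from 7.29 to 4.20 TPM, and Mvd, a mevalonate pathway enzyme, from 2.46 to 1.21 TPM. With auxin 0 of the 25 were past 1.5-fold lower, against 1.87% of all genes, and the steps of Insig1 and Mvd were -0.58 and -0.37. Idi1, an isoprenoid enzyme, was at 6.99 and 5.16 TPM. Targets of SRF and YAP, factors that answer actin and cell shape, had a median 0.20 below that of all genes, the lowest of any list with 10 or more members. Amotl2, a YAP regulator, led them, from 9.13 TPM at 60 minutes to 4.06 and 1.46 TPM, a step of -1.04 (-0.92 with auxin), and Vcl, vinculin, followed at -0.63 (-0.67).

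Naive pluripotency genes were slightly below other genes. The median of the 33 members was 0.12 below that of all genes, and 0.18 below with auxin, with 24 below it and 9 above. Past 1.5-fold lower were 3 of the 33, against 1.74% of all genes, all of them also past 1.5-fold lower with auxin. Lin28a, a let-7 inhibitor, went from 4.91 to 2.22 TPM, Socs3, the feedback inhibitor of LIF signalling, from 7.20 to 4.03 TPM, and Mycn, a growth regulator, from 9.72 to 5.98 TPM. With auxin, 6 of the 33 were past 1.5-fold lower, against 1.87% of all genes. Stat3, the LIF effector, had a step of -0.57 and Nanog, a core factor, went from 3.88 to 2.42 TPM, a step of -0.51 (-0.35 with auxin, where its level was 1.85 TPM at 90 minutes). Dppa5a had -0.42, Tdgf1 -0.42 and Tbx3 -0.38. Esrrb and Nr5a2, whose proteins auxin degrades, had -0.31 and -0.24, and -0.45 and -0.16 with auxin.

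Zfp42, the most abundant member of the list, was at 60.7 and 61.3 TPM, Klf5 at 14.5 and 13.9 TPM and Dppa4 at 9.30 and 9.15 TPM. Jam2, an adhesion protein, was at 7.07 and 7.57 TPM, and Nr0b1, a nuclear receptor corepressor, at 1.42 and 1.73 TPM. Pou5f1 had a step of -0.15, Klf4 -0.15 and Klf2 -0.28 (-0.44, -0.41 and -0.64 with auxin). Klf5, Dppa4 and Zfp57, with steps of -0.06, -0.02 and -0.05, are above 0 once the median of all genes is taken as the baseline.

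The p53 response was on the higher side relative to all genes. Its 20 members had a median step of 0.01, which is 0.14 above that of all genes (0.15 above with auxin). Without auxin 16 members were above the median of all genes and 4 below, and with auxin 13 and 7. Perp, an adhesion protein and p53 target, was the 1 member past 1.5-fold, at 1.29 and 2.58 TPM, a step of 0.64 (0.66 with auxin). Trp53inp1, a stress response gene, was at 23.8 and 29.7 TPM, Ccng1, a cyclin that p53 activates, at 25 and 28.9 TPM, and Mdm4, an inhibitor of p53, at 24.2 and 27.9 TPM. Sesn1 and Sesn2, of the sestrin family, were lower, with steps of -0.43 and -0.20, and the apoptosis genes Bax and Bbc3 had -0.17 and -0.13. Mir34a, given above, is not in this list.

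Ribosomal protein genes also lay above the median of all genes, though with less likeness between the arms. The 49 cytoplasmic members had a median 0.12 above it without auxin and 0.03 above it with auxin, with 38 of 49 above it without and 32 of 49 with auxin. Rpl24 had the highest step, 0.54 (0.58 with auxin), and Rps13 the lowest, -0.37. Ribosomal protein genes have many near-identical pseudogenes, which makes their values uncertain. Mitochondrial ribosomal protein genes had a median 0.05 above that of all genes, with 26 of 39 above it.

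Several signalling and chromatin lists were on the lower side and others were not. Nodal, TGF-beta and BMP pathway genes had 14 of 24 members above the median of all genes, and their list median was below it only with no filter on low values. Hedgehog pathway and cilium genes had 12 of 19 above it, with a list median that fell below it under quantile normalization and with no filter. Chromatin remodellers and histone acetylation genes had 13 of 29 above it, with a list median just below it that moved just above it with equal totals and with a pseudocount of 0.1 TPM. Notch pathway genes had a median 0.15 below that of all genes, with 13 of 16 below it. The ligand Jag1 went from 4.32 to 2.44 TPM (-0.63) and the target Hes1 from 4.16 to 2.45 TPM (-0.58), whereas the receptor Notch3 went from 3.77 to 5.95 TPM (0.54) and the ligand Jag2 from 5.98 to 7.39 TPM (0.27). All 4 kept their sign with auxin. RNA polymerase II and Mediator genes had a median 0.15 below that of all genes, with 31 of 42 below it, led by Supt6 and Gtf2f1 at -0.62 and -0.59. H3 lysine methylation enzymes had 22 of 26 below it, proteasome genes 27 of 31, and Polycomb genes 21 of 29, among them Bmi1 at -0.64. Immediate early genes had 11 of 16 below it, although Fosl1 was past 1.5-fold higher.

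**Figure D5:**
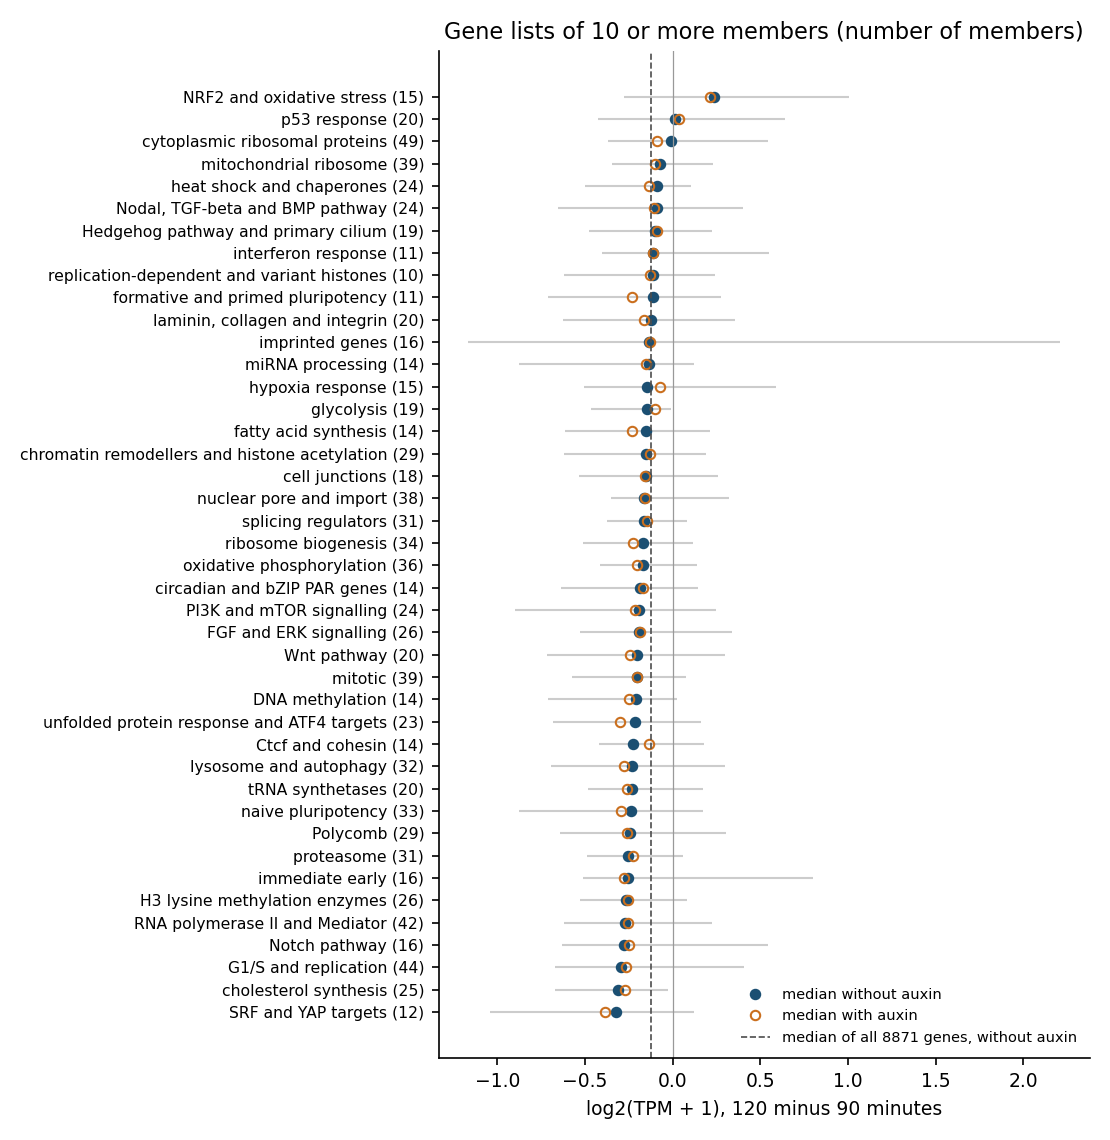
Median step (x axis, log2(TPM + 1) at 120 minus 90 minutes) of each gene list with 10 or more members, without auxin as filled and with auxin as open circles, with the range over members as a grey line and the median of all 8871 genes, -0.12, as a dashed line. Oxidative stress genes have the highest median and targets of SRF and YAP the lowest; lists between the dashed line and 0 lie above the median of all genes but have a negative median as deposited.

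The remaining lists of 10 or more members were closer to all genes than the naive pluripotency list was, without auxin. Genes for tRNA synthetases were 0.11 below all genes (0.14 below with auxin). Genes of the unfolded protein response and ATF4 targets were 0.09 below (0.18 below with auxin), and Ctcf and cohesin genes 0.10 below (0.01 below with auxin). Oxidative phosphorylation was 0.05 below, ribosome biogenesis 0.05 below and glycolysis 0.02 below. Genes of DNA methylation were 0.09 below, with Dnmt3l, a cofactor of de novo methylation, past 1.5-fold lower, from 10.8 to 6.23 TPM. Heat shock genes were 0.04 above, without auxin, and 0.02 below with auxin. The formative list was 0.01 above and 0.11 below, and 0.01 below without auxin under quantile normalization. Of the 44 higher genes only 6 belong to any of the 47 lists (Fosl1, Mirg, Nqo1, Perp, Plod2 and Srxn1), and of the 154 lower genes 29 do.

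Long genes stood slightly apart in their median step, but the genes past 1.5-fold were on the shorter side in both directions. Genes were split by span, from first to last annotated base, into 5 groups of nearly equal number. The median step was -0.12 in the group with the shortest spans (median 4635 bp), -0.13, -0.14 and -0.14 in the next, and -0.07 in the group with the longest (median 93692 bp). With auxin the shortest and longest groups had -0.14 and -0.03. In the longest group 40.9% of genes were higher at 120 minutes, and in the shortest 29.2%. Among genes of at least 5 TPM the longest group had a median of -0.18 and the shortest -0.15, so the order there was not the same. Across 8864 genes with a position, rho between span and step was 0.079 without and 0.142 with auxin, as a description.

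Genes were also split by their number of Nr5a2 binding sites. The authors' peak list, from wild-type cells, was matched to each gene and 10 kb on either side. The median step was -0.11 for 2470 genes with 0 peaks, -0.14 for 2497 genes with 1 peak, -0.13 for 3082 genes with 2 to 4 peaks and -0.06 for 815 genes with 5 or more. The last group has a median span of 73302 bp, so number of peaks and span go together. Within the group of longest spans the median was -0.07 for genes with and -0.07 for genes without a peak. With peaks counted inside the gene only, the group with 5 or more had a median of 0.01.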

How the data were processed

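Expression was deposited as TPM, with 1 column per group, and each column is the authors' mean of 3 libraries. STAR, RSEM and DESeq2 are named with mm10, and Bowtie2 and MACS2 for peaks, per the submitters' processing notes, with no version. The gene model behind the values is not given in the sources used here. Nor is it given whether they count spliced or unspliced RNA, or whether the counting used strand. The listed genes sum to 45046 TPM at 90 minutes without auxin, a small part of the total to which TPM is scaled. What the rest counts is not given. Actb was at 8.29 TPM and Rpl11 at 2.42 TPM at that time, so the values are not to be read as levels of mature messages. TPM keeps no read depth, so depth is unknown and no interval can be given. A limma fit was planned for single libraries; with means alone, differences of log2(TPM + 1), with a pseudocount of 1 TPM, took its place. Missing depth and spread mean that a difference of a low gene can rest on few reads.

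The authors also deposited 1 list of Nr5a2 peaks from wild-type cells, and a call per gene for the response to auxin, which was not used here. Gene positions, promoters (250 bases before to 50 after a start) and microRNA sequences are from RefSeq tables on GRCm38.p6. Positions were found for 8864 of the 8871 genes and promoters for 7199. The position table has no strand, and 102 of the named genes overlap another annotated gene, so reads of both may be mixed.

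Named by rule were 245 genes: the 12 highest and 12 lowest steps, the same by the smaller step of both arms, the 2 highest and 2 lowest members of each of 47 lists, and all naive pluripotency genes. The 6 genes with the largest difference between arms each way, the 6 highest of those first at 1 TPM at 120 minutes, and the 2 genes on each side of the limit complete it. The microRNA genes other than Mirg and Gm13648, the middle members of the oxidative stress list, Meg3 and Rian beyond their list, and genes such as Azin1, Nbr1, Ccne1, Mdm4, Neurod1, Ass1 and Triml1 were chosen after their values were seen. Members and lists were chosen with earlier results of these data known. The step function returned simulated fold changes that were set without noise on its own scale. That checks the code only, and not the effect of noise or of low levels. Alternatives tried were another pseudocount, other filters on low values, 3 other scalings and a 2-fold threshold. Python 3.11.15, pandas 2.3.3, NumPy 2.4.6, SciPy 1.17.1 and matplotlib 3.10.9 were used.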

Additional observations from a re-analysis of the deposited data

How the results depend on the processing

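No paired analysis was possible because only group means were deposited, and for the same reason leaving out single libraries and a replicate block were not run. With a pseudocount of 0.1 TPM, 191 genes were past 1.5-fold higher and 617 lower without auxin, and 206 and 629 with auxin. Past 2-fold, with the pseudocount of 1 TPM, the numbers were 6 and 9 without and 5 and 13 with auxin. Among genes of at least 5 TPM, 18 were higher without and 17 with auxin, 81.5% of genes were lower by any amount, and the group with the longest spans had a median step of -0.18. Without a filter 59.9% of genes were lower. Scaling changed the balance of higher and lower genes. With equal totals at 90 and 120 minutes, 94 genes were higher and 54 lower (103 and 69 with auxin), the median step was -0.016 and 53% were lower. Centred on the median, 106 were higher and 41 lower (115 and 55 with auxin), with a median of 0 and 50.0% lower by construction. Under quantile normalization 66 were higher and 29 lower (80 and 44 with auxin), with a median of -0.0091 and 51.5% lower. Of the 68 named genes past 1.5-fold, all 68 kept their sign under the 6 settings that keep all of them, and 53 of 53 did at 5 TPM. This was largely fixed in advance. Another pseudocount or filter cannot change the sign of a step, and centring or equal totals shift steps by less than 1.5-fold. Of the 68 genes, 46 were still past 1.5-fold with equal totals, 44 when centred and 42 under quantile normalization. Oxidative stress genes had the highest list median in each of the 7 settings other than the fold. The lists for G1/S, cholesterol synthesis, ribosomal proteins, naive pluripotency and the p53 response stayed on their side of the median of all genes in each. Heat shock, formative, mitochondrial ribosome, ribosome biogenesis and glycolysis lists were among those that did not, in at least 1 setting. With no filter 34 of 44 lists stayed on their side, and 30 of 40 did among genes of at least 5 TPM. What depth limits cannot be said, since it is unknown.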

Other observations

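The list of lysosome and autophagy genes had 24 of 32 members lower and 8 higher at 120 minutes, against 70.5% of all genes lower, with a median 0.11 below that of all genes and 2 members past 1.5-fold lower, against 1.74%. Gaa and Glb1, both lysosomal enzymes, had the highest steps of the list, 0.30 and 0.29. Apart from Gabarapl2 and Map1lc3b, which the rule named, the genes below and the pump subunits were singled out after the values were seen. Gabarapl2 and Map1lc3b code for proteins that are conjugated to autophagosome membranes. Gabarapl2 went from 14.2 TPM at 60 minutes to 7.97 TPM at 90 minutes and 4.08 TPM at 120 minutes, and Map1lc3b from 13.8 to 5.65 and 3.29 TPM. Nbr1, an autophagy receptor, was at 13.5, 8.93 and 5.25 TPM. Sqstm1, the receptor that also binds Keap1, went the other way over the last interval, at 7.31, 4 and 4.94 TPM. Of 15 subunits of the vacuolar proton pump, which acidifies lysosomes, 13 had a negative and 2 a positive step, with a median 0.17 below that of all genes. Atp6v1b2, at 8.66 and 4.76 TPM, and Atp6v1d, at 7.85 and 4.89 TPM, were past 1.5-fold lower, while Atp6v1h and Atp6v0a1 had steps of 0.21 and 0.14. Cd68, a lysosomal membrane protein, was at 22.4, 7.97 and 3.99 TPM.

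Genes that control polyamine synthesis, also singled out after the values were seen, differed in direction among close relatives. Ornithine decarboxylase, the product of Odc1, is held down by antizymes, and antizyme inhibitors free it. Azin1, an antizyme inhibitor, went from 14.3 to 8.44 TPM, a step of -0.70 (-0.59 with auxin). Its relative Azin2 went from 1.78 to 3.40 TPM, a step of 0.66 (0.63 with auxin). Oaz1, an antizyme, was at 2.84 and 1.51 TPM, a step of -0.62 (-0.77 with auxin). Odc1 itself was at 20.5 and 19.7 TPM, and Amd1, which makes decarboxylated S-adenosylmethionine, at 18.0 and 13.3 TPM.

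Of 8 small nucleolar RNA host genes at 1 TPM or more at some stage, a group singled out after the values were seen, 2 were past 1.5-fold higher (Snhg5 and Snhg6, against 0.496% of all genes) and 1 lower (Snhg15, against 1.74%). With auxin 0 were higher and 2 lower. The steps of Snhg5, Snhg6 and Snhg15 with auxin were -1.12, 0.50 and -0.95. Snhg4 was at 25.5 and 23.7 TPM and Snhg10 at 14.3 and 13.3 TPM. Snhg17 was listed at 0 at both times.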
